A study of Mus musculus with 4 samples.

Results

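The immediate early genes are described here by 10 members, taken by symbol from both deposited tables: the AP-1 genes Fos, Fosb, Jun, Junb and Atf3, the transcription factor gene Egr1, the phosphatase gene Dusp1, the RNA-binding protein gene Zfp36, and Ier2 and Cyr61. All 10 were found among 23284 genes. RNA of whole lung of C57BL/6 mice was sequenced in 4 libraries, 1 per group. The groups were Il22 knockout (IL22-/-) mice that were sensitized and then challenged with HDM, house dust mite extract that gives an asthma-like disease; wild-type mice given the same HDM course; wild-type mice given recombinant IL-22 into the trachea; and wild-type mice given PBS into the trachea. HDM lungs were taken 48 h after the last dose and the IL-22 and PBS lungs after 24 h. RNA came from frozen lungs. The labels give neither the age nor the sex of the mice, nor how many animals a library holds. Because each group has 1 library, no difference below has a replicate check or a p-value.

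Immediate early genes are transcribed within minutes of a stimulus such as a growth factor, a cytokine, stretch or stress, without prior protein synthesis. MAP kinases activate factors already bound to their promoters, among them SRF with its ternary complex partners and CREB. Their mRNAs decay fast, and the products include both transcription factors that carry the signal on and inhibitors that end it. In lung and other tissues they are also known to respond to the handling of the tissue.

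Values are FPKM, fragments scaled by transcript length and by sequencing depth. A difference is that of log2(FPKM + 1) between the libraries of 1 table, which understates the change of low genes. A gene counts as measured in a pair where its FPKM averaged 1 or more, and measured genes with a difference of 1 or more are called higher, those at -1 or less lower. Depth, estimated from the steps of low values, was 27.3 M (M is 1000000) reads in the knockout HDM library, 24.98 M in wild-type HDM, 28.9 M with IL-22 and 19.997 M with PBS. Ratios carry 95% intervals from the estimated reads (exact binomial), which cover counting error only and compare these libraries, not the conditions. The targeted gene, Il22, was listed at 0 in the knockout HDM library, at 0.362 FPKM (8 reads) in wild-type HDM, and at 0 with IL-22 and with PBS, so a 0 does not by itself tell the knockout from an unchallenged wild type. The lung markers Sftpc and Scgb1a1 were abundant in all 4 libraries, at 30749 to 37820 and 112693 to 141280 FPKM.

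With IL-22 in the airway, 9 of the 10 genes lay below their level with PBS, and Atf3 alone lay above it. The median difference was -0.37, against 0.037 over all 13233 measured genes, of which 41.4% lay below 0 and 58.6% above. Egr1 was the 1 member called lower and none was called higher, where 0.189% of all genes were called lower and 0.597% higher. At a size of 1.5-fold 3 members were lower, Egr1, Fos and Cyr61, where 0.461% of genes were, and none was higher, where 1.96% of genes were. By their differences Egr1, Cyr61, Fos and Fosb stood 23rd, 31st, 32nd and 69th from the lowest of the 13233. Between the knockout and the wild type after HDM the members did not share a direction: 6 lay below 0 and 4 above (46.1% and 53.9% of 13285 genes), the median was -0.092 against 0.026 over all genes, and none was called, where 0.549% of genes were called higher and 2.42% lower. At 1.5-fold Fosb and Cyr61 were higher, where 3.23% of genes were, and Atf3 was lower, where 6.41% were.

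**Figure D1:**
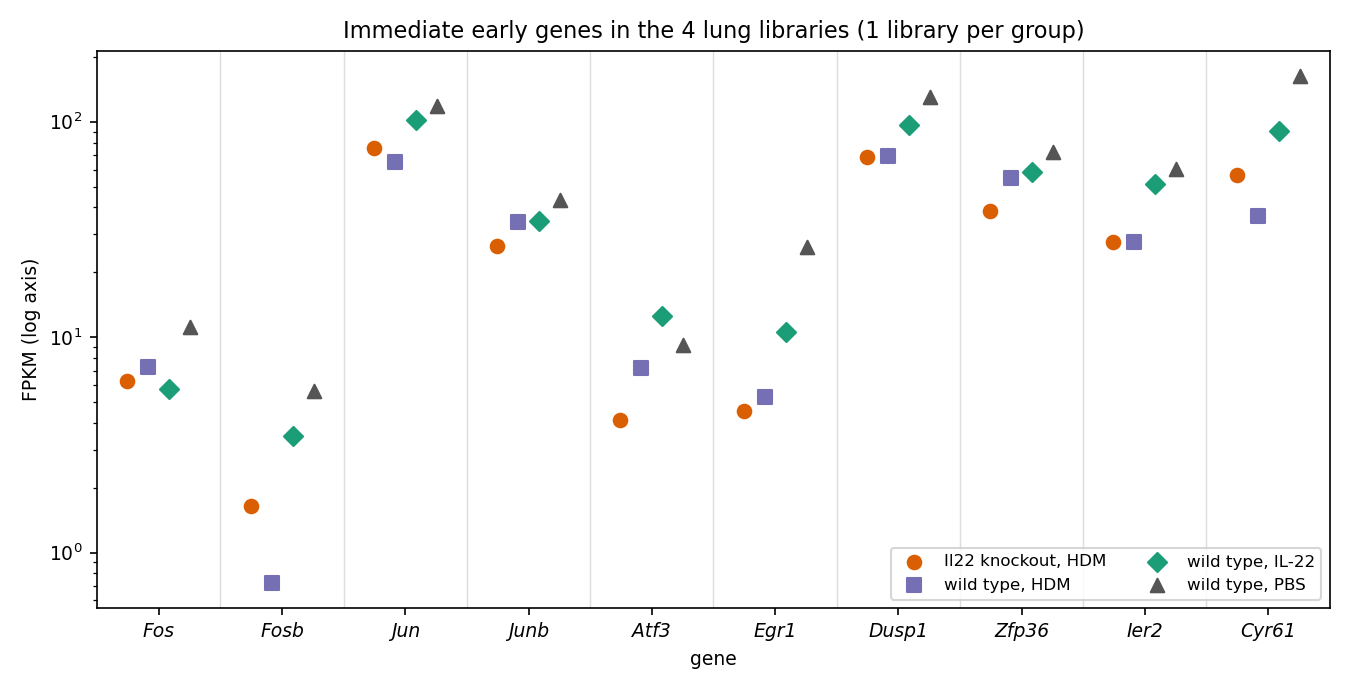
FPKM on a log axis of the 10 genes in the 4 libraries; each point is 1 library and there are no error bars because each group has 1. The PBS triangle is the highest of the 4 points for every gene except Atf3, where the IL-22 library is higher at 12.5 FPKM. The HDM points come from another table, so they are only set side by side with the others.

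FOS and JUN family proteins pair to form AP-1, a dimeric transcription factor. Fos (chromosome 12, 85473890 to 85477274 of mm10), whose product needs a JUN partner to bind DNA, was at 5.77 FPKM in the IL-22 library and 11.1 FPKM with PBS. The ratio was 0.520 (0.448 to 0.602) and the difference -0.84. In the HDM pair Fos was at 6.26 FPKM in knockout lung and 7.29 in wild-type lung, a ratio of 0.859 (0.736 to 1.002), so its interval reached 1. Among the 10 it was the only gene whose level with IL-22 lay below both HDM libraries.

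Fosb (chromosome 7, 19302696 to 19310118), its paralog, was the lowest member in every library. It stood at 3.49 FPKM in the IL-22 library and 5.65 FPKM with PBS, a ratio of 0.617 (0.534 to 0.713). After HDM it was at 1.65 FPKM in knockout lung and 0.726 in wild-type lung, from 161 estimated reads in the knockout and 65 in the wild type. That ratio, 2.27 (1.69 to 3.07), was the largest of the 10 in the HDM pair, but its difference with the pseudocount was 0.62 and was not called. Fosb therefore had opposite signs in the 2 pairs; whether the pairs differ was not tested.

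Jun (chromosome 4, 95049036 to 95052222), the AP-1 partner that can also pair with itself, was among the most abundant members. It was at 102 FPKM in the IL-22 library and 118 FPKM with PBS, a ratio of 0.866 (0.840 to 0.894). In the HDM pair it was at 75.3 FPKM in knockout lung and 65.2 in wild-type lung, a ratio of 1.15 (1.11 to 1.20). Both differences, -0.21 and 0.20, were small. The single exon of Jun overlaps that of the antisense gene Junos, and whether the reads were counted by strand is not given in the sources used here, so reads of the pair cannot be told apart. Junb (chromosome 8, 84976909 to 84978748), a JUN protein that can oppose JUN at some promoters, was at 34.8 FPKM in the IL-22 library and 43.1 FPKM with PBS, a ratio of 0.807 (0.750 to 0.867). In the HDM pair it was at 26.4 FPKM in knockout lung and 34.4 in wild-type lung, a ratio of 0.769 (0.711 to 0.832). Junb and Jun thus lay on opposite sides of 1 after HDM and on the same side with IL-22.

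Atf3 (chromosome 1, 191170296 to 191183333), a stress-induced factor of the ATF and CREB family that can repress inflammatory genes, was the exception with IL-22. It was at 12.5 FPKM in the IL-22 library and 9.23 FPKM with PBS, a ratio of 1.36 (1.19 to 1.56) and a difference of 0.41, above 95.2% of measured genes. The HDM libraries had it at 4.12 FPKM in knockout lung and 7.21 in wild-type lung. The ratio of 0.572 (0.478 to 0.685) was the lowest of the 10 in that pair, with a difference of -0.68. The genes of the integrated stress response, the pathway that induces Atf3 through ATF4, had medians of -0.011 with IL-22 and -0.12 after HDM over 13 measured genes (turned to 0.091 by scaling to a common total and to 0.054 by scaling to reference genes), and none of them was called in either pair.

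Egr1 (chromosome 18, 34861207 to 34864956), a zinc finger transcription factor and a classical target of SRF, had the largest difference of the 10. It was at 10.6 FPKM in the IL-22 library and 26.1 FPKM with PBS, from 865 estimated reads (IL-22) and 1483 (PBS), a ratio of 0.404 (0.371 to 0.439) and a difference of -1.23. In the HDM pair it was at 4.56 FPKM in knockout lung and 5.28 in wild-type lung, a ratio of 0.864 (0.744 to 1.001). The HDM levels were close to each other and both below the IL-22 level.

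Dusp1 and Zfp36 encode inhibitors of the signals that induce them. Dusp1 (chromosome 17, 26505591 to 26508472), the phosphatase that inactivates p38 and JNK, was at 96.3 FPKM in the IL-22 library and 130 FPKM with PBS, a ratio of 0.738 (0.709 to 0.768). Its levels after HDM were alike, 68.6 FPKM in knockout lung and 69.02 in wild-type lung, a ratio of 0.994 (0.946 to 1.04). Zfp36 (chromosome 7, 28376784 to 28379228), or tristetraprolin, which binds AU-rich elements and hastens mRNA decay, was at 58.3 FPKM in the IL-22 library and 71.97 FPKM with PBS, a ratio of 0.811 (0.776 to 0.847). After HDM it was at 38.7 FPKM in knockout lung and 54.9 in wild-type lung, a ratio of 0.705 (0.670 to 0.741). The transcript length used for the reads of Zfp36, 2790 bases, is longer than the span given, so both its intervals may be too narrow. After HDM the interval of Zfp36 thus lay below 1, while that of Dusp1 held 1.

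Ier2 (chromosome 8, 84661331 to 84662852), a small nuclear protein gene of a single exon, was at 51.6 FPKM in the IL-22 library and 60.3 FPKM with PBS, a ratio of 0.855 (0.800 to 0.914). In the HDM pair it was at 27.8 FPKM in knockout lung and 27.7 in wild-type lung, a ratio of 1.001 (0.915 to 1.097). Cyr61 (now Ccn1, chromosome 3, 145646971 to 145649985), a secreted matrix protein that binds integrins and is induced through SRF and YAP, was the most abundant member with PBS. It was at 90.4 FPKM in the IL-22 library and 163 FPKM with PBS, a ratio of 0.555 (0.534 to 0.577) and a difference of -0.84. After HDM it was at 56.7 FPKM in knockout lung and 36.7 in wild-type lung, a ratio of 1.55 (1.45 to 1.64) and a difference of 0.61. Like Fosb and Jun, it had opposite signs in the 2 pairs. Atf3 did so the other way round, and Ier2 lay only 0.0021 above 0 after HDM.

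Counting error was small beside most of these ratios. With IL-22 the interval lay below 1 for 9 genes and above 1 for Atf3. In the HDM pair it lay below 1 for Junb, Atf3 and Zfp36, above 1 for Fosb, Jun and Cyr61, and held 1 for Egr1, Fos, Dusp1 and Ier2. Spread between animals was not measured, so intervals that leave out 1 do not show that the groups differ.

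**Figure D2:**
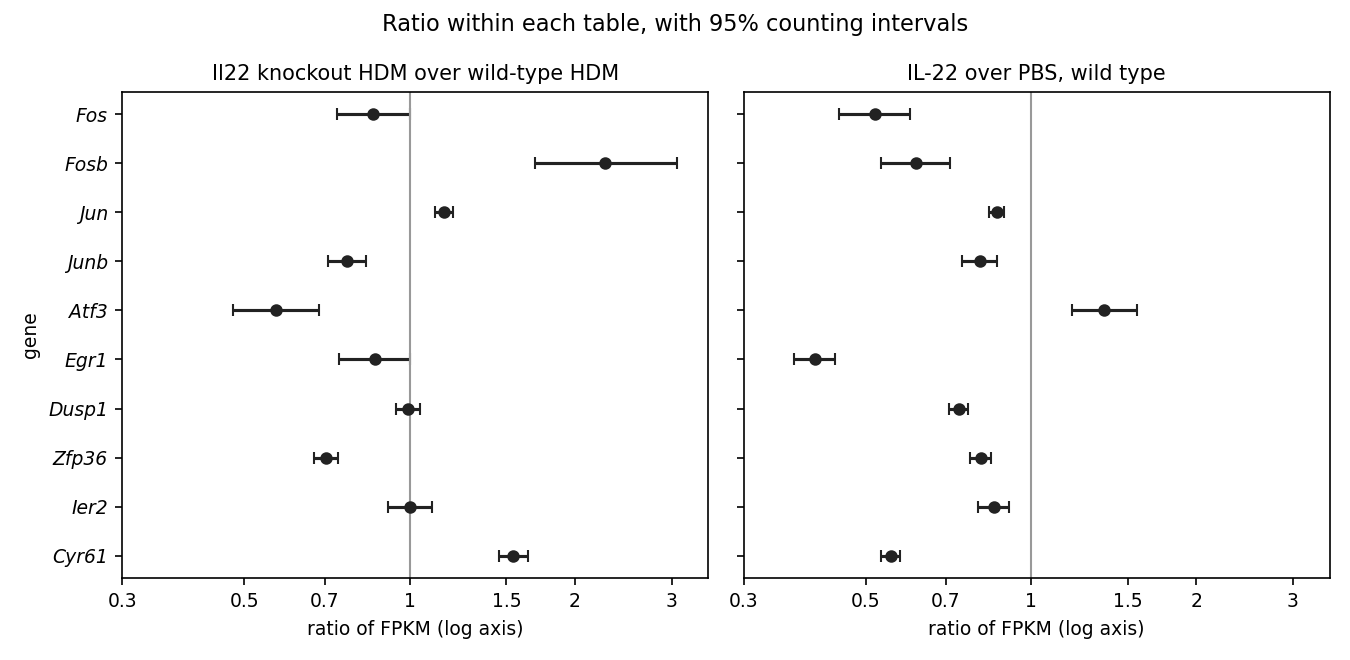
Ratio of FPKM on a log axis for each gene, knockout HDM over wild-type HDM on the left and IL-22 over PBS on the right; bars are 95% counting intervals and the grey line is a ratio of 1. With IL-22 the points run from 0.404 for Egr1 to 1.36 for Atf3 and all but Atf3 lie left of the line, while after HDM they run from 0.572 for Atf3 to 2.27 for Fosb on both sides of it.

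The promoters of the members are shown because these genes are switched on through a few short elements next to the start, and because 9 of them lay on the same side of 0 with IL-22. Of the 10 genes 8 matched the RefSeq promoter table of GRCm38.p6, the assembly called mm10, which gives 250 bases before to 50 after the start. Egr1 and Ier2 had no match, so their promoters were not searched. Elements farther from the start were not searched for any gene. The letters TGACG, the core of the element bound by CREB and ATF proteins, were searched on both strands and found in 6 of the 8, against 20.8% of all 32851 promoters. The whole element, TGACGTCA, which holds that core, was found in Dusp1 alone, against 1.79% of promoters. A CArG box, the element of SRF, was found in Zfp36 alone of the 8, 58 bases before the start, against 1.63% of promoters. TATAAA was found in Fos, Junb and Cyr61, against 13.6% of promoters. It lay 33 bases before the start in Fos and 25 before in Cyr61, but in Junb it began at the start itself. The AP-1 element TGANTCA was found in none, against 7.81%. The 150 bases before the start are given for the 6 genes with the TGACG core, 5′ to 3′ on the gene's strand, with the core in capitals (CGTCA where it lies on the other strand). The windows are Fos (chr12:85473740-85473889, plus strand), Fosb (chr7:19310046-19310195, minus strand), Junb (chr8:84978749-84978898, minus strand), Atf3 (chr1:191183334-191183483, minus strand), Dusp1 (chr17:26508473-26508622, minus strand) and Cyr61 (chr3:145649986-145650135, minus strand); that of Fosb precedes a start inside the span given for the gene.
Fos: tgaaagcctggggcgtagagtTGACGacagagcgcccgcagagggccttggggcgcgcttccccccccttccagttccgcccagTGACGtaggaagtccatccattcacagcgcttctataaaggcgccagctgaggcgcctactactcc
Fosb: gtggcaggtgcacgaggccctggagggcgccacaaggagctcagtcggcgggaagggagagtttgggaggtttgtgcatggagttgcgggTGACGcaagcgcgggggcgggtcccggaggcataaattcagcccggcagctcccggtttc
Junb: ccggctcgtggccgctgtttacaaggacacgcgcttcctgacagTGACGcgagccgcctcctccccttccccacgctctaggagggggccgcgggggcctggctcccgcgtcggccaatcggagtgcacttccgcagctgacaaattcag
Atf3: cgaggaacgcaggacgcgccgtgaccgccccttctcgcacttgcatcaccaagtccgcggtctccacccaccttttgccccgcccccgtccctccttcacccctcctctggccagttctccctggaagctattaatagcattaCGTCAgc
Dusp1: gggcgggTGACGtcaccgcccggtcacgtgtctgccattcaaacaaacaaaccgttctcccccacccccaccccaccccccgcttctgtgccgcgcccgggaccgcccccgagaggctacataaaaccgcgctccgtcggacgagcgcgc
Cyr61: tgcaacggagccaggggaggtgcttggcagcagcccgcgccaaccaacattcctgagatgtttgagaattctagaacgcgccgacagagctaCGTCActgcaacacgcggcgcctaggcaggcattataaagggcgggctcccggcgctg
Fos holds the core at 129 and 66 bases before the start, Junb at 106, Fosb at 60, Cyr61 at 58 and Atf3 at 7. Dusp1 holds it at 143 within the whole element, and again at 191, outside the window shown. Of the genes with the core, Fos, Fosb, Junb, Dusp1 and Cyr61 lay below 0 with IL-22 and Atf3 above. Jun and Zfp36, which lack it, lay below 0. With so few genes, whether the core goes with direction was not tested. These matches are letters in a window, not bound sites, and no binding was measured.

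The 3′ UTRs of most members hold another sequence feature. The members were chosen as immediate early genes, whose mRNAs are known to decay fast, so this feature is not independent of that choice. ATTTA, the pentamer of AU-rich elements to which ZFP36 binds, occurred in 9 of the 10 matched GENCODE M21 transcripts, Ier2 being the exception, against 66.6% of 12663 measured genes. The median was 3 copies and 3.56 per kilobase, against 1 copy and 1.25 per kilobase over the measured genes. The longer form TATTTAT occurred in 7 of the 10, all but Egr1, Junb and Ier2, against 27.5% of measured genes. Cyr61 had 5 pentamers in 690 bases, and Fosb had 1 in 2145. The members with the highest density, Cyr61 and Dusp1, were at ratios of 0.555 and 0.738 with IL-22. Fosb, with the lowest density above 0, was at 0.617. Egr1, at 1.68 per kilobase, was at 0.404, and Ier2, without the pentamer, at 0.855. Whether the density goes with the ratio was not tested.

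No relative of the members passed the size rule with IL-22. At 1.5-fold, Nr4a1 (-0.66) and Ier3 (-0.61) were lower, and Nfkbiz (0.70) and the CCN family gene Nov (0.83) higher. Of 36 other measured immediate early genes none was called in either pair, and their medians were -0.066 with IL-22, where 24 lay below 0, and -0.0035 after HDM; scaling to a common total turned the first to 0.037, and the second turned to 0.15 when scaled by reference genes. Jund, an AP-1 gene expressed largely without stimulation, was at 134 FPKM in the IL-22 library and 174 FPKM with PBS, and at 79.3 in knockout lung and 88.3 in wild-type lung after HDM. Fosl2 was at 12.02 FPKM in the IL-22 library and 13.1 FPKM with PBS, and at 8.75 in knockout lung and 13.5 in wild-type lung after HDM. Over 13 measured AP-1 relatives the median was 0.15 with IL-22, with 4 below 0 and none called. After HDM 1 relative, Batf3, a factor of dendritic cells, was called lower, at 2.44 FPKM in knockout lung and 7.15 in wild-type lung.

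Among the EGR and NR4A genes and their NAB repressors none of 7 measured with IL-22 and none of 6 after HDM was called. Nr4a1, an orphan nuclear receptor induced much like Egr1, was at 54.1 FPKM in the IL-22 library and 85.7 FPKM with PBS, a difference of -0.66. The HDM pair had it at 7.38 FPKM in knockout lung and 7.43 in wild-type lung. Egr2 was at 1.68 FPKM in the IL-22 library and 2.78 FPKM with PBS, and at 1.02 in knockout lung and 2.34 in wild-type lung after HDM. With IL-22 4 of the 7 lay below 0 and 3, Nr4a2, Nr4a3 and Nab1, above, with a median of -0.095 that scaling to a common total turned to 0.0046.

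Ctgf (now Ccn2), a CCN family gene induced with Cyr61 by SRF and YAP, did not share its direction with IL-22. It was at 114 FPKM in the IL-22 library and 94.8 FPKM with PBS, and at 121 in knockout lung and 87.4 in wild-type lung after HDM. All 4 measured CCN relatives lay above 0 with IL-22 (median 0.30). Of 14 YAP and SRF targets none was called with IL-22, and after HDM 1, Fhl2, was called lower, at 1.77 FPKM in knockout lung and 5.17 in wild-type lung. Srf itself was at 30.8 FPKM in the IL-22 library and 26.9 FPKM with PBS, and at 15.2 in knockout lung and 18.2 in wild-type lung after HDM. None of 14 SRF, ternary complex, MRTF and CREB genes and none of 23 genes of the MAP kinase cascade was called in either pair. None of 10 other dual specificity phosphatases was either. RNA levels of these regulators say nothing of their activity.

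Zfp36l1, a relative of Zfp36, was at 87.9 FPKM in the IL-22 library and 93.5 FPKM with PBS, and at 69.9 in knockout lung and 78.4 in wild-type lung after HDM. Of the AU-rich mRNAs that ZFP36 is known to bind, 4 of 11 measured were called lower after HDM and none of 12 was called with IL-22. The neutrophil chemokine Cxcl1 was at 1.08 FPKM in knockout lung and 11.5 in wild-type lung after HDM, the monocyte chemokine Ccl2 at 1.33 FPKM in the knockout and 6.70 FPKM in wild type, and Ccl3 at 1.81 FPKM in the knockout and 5.86 FPKM in wild type. Of 11 measured delayed targets of AP-1 and growth factors 1 was called lower after HDM, Timp1, an inhibitor of metalloproteinases, at 17.3 FPKM in knockout lung and 60.9 in wild-type lung, and of 12 measured with IL-22 none was called.

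**Figure D3:**
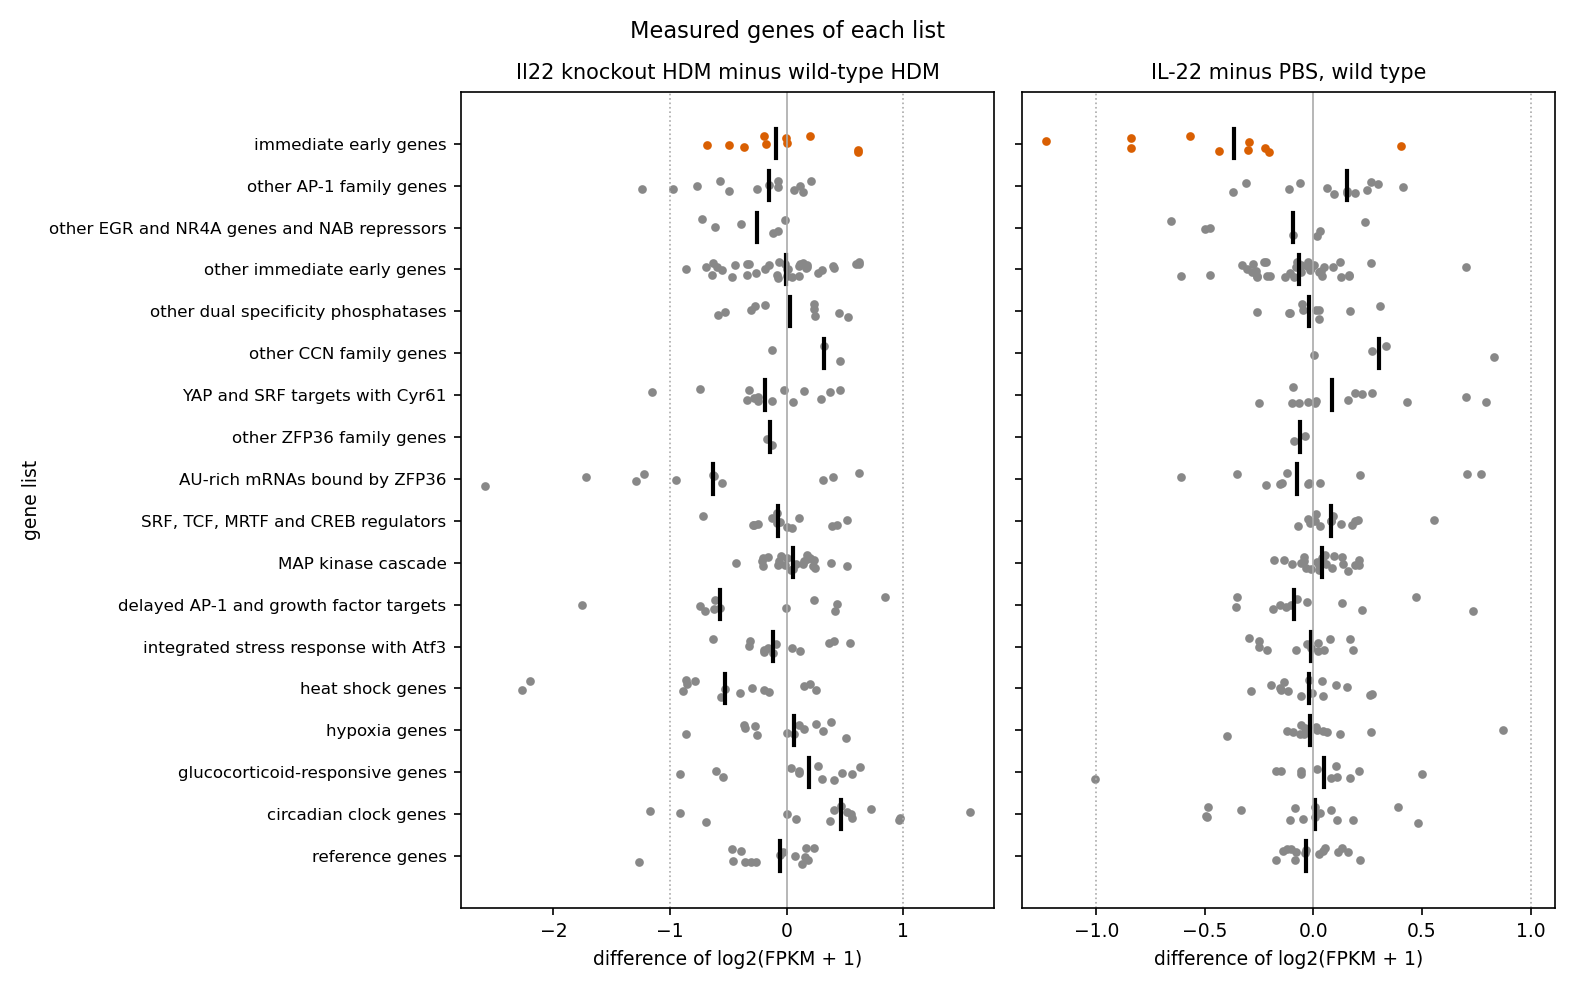
Difference of log2(FPKM + 1) of every measured gene of the lists other than cell type markers, knockout HDM minus wild-type HDM on the left and IL-22 minus PBS on the right, with a black bar at the list's median and dotted lines at the size rule of 1. The immediate early genes (orange) have a median of -0.37 with IL-22, while the other family, pathway, tissue-state and reference lists drawn on the right have medians between -0.095 and 0.30; on the left Hspa1a and Hspa1b stand at -2.27 and -2.20.

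Lists that report on the state of the tissue were measured beside the members. Of 15 heat shock genes none was called with IL-22 (median -0.018, turned to 0.086 by scaling to a common total). After HDM 2 were called lower, both inducible HSP70 genes: Hspa1a was at 6.22 FPKM in knockout lung and 33.8 in wild-type lung and Hspa1b at 6.62 FPKM in the knockout and 34.1 FPKM in wild type. They are near-identical copies that can share reads. The list's median was -0.53, and 12 of 15 lay below 0. None of the hypoxia genes was called, with medians of -0.014 over 14 with IL-22, turned to 0.071 by the same scaling, and 0.066 over 13 after HDM. Of 12 glucocorticoid-responsive genes 1 was called with IL-22, Zbtb16, at 3.94 FPKM in the IL-22 library and 8.94 FPKM with PBS. Of 15 clock genes none was called with IL-22 (median 0.0060, turned to -0.033 by median ratio scaling). In that pair 7 lay below 0 and 8 above, with differences from -0.49 to 0.48. After HDM Dbp was called higher, at 48.6 FPKM in knockout lung and 15.7 in wild-type lung. Nfil3 was called lower, at 1.98 FPKM in the knockout and 5.72 FPKM in wild type (list median 0.47). The part of tissue handling, stress or time of day in the members' differences was not tested.

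Cell type markers also differed between libraries, and in whole lung fewer cells of a type and less RNA per cell cannot be told apart. Endothelial markers, of cells in which several members respond to flow, had a median of -0.045 with IL-22, turned to 0.060 by scaling to a common total, with none of 11 called and summed levels of 1993 FPKM in the IL-22 library and 2096 FPKM with PBS. After HDM 10 of the 11 lay above 0 (median 0.45, none called), with sums of 1765 FPKM in knockout lung and 1308 in wild-type lung. Smooth muscle markers were all above 0 with IL-22, 3 of 10 called higher (median 0.81), with sums of 1274 FPKM in the IL-22 library and 679 FPKM with PBS; after HDM all lay below 0, 1 called lower (median -0.38), with sums of 571 FPKM in knockout lung and 813 in wild-type lung. Monocyte and interstitial macrophage markers summed to 517 FPKM in the IL-22 library and 316 FPKM with PBS, 2 of 11 called higher, and to 258 FPKM in knockout lung and 567 in wild-type lung after HDM, 5 of 11 called lower. No marker of these 3 lists was at 0 in any library.

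Markers of heart muscle, fat, alveolar macrophages and blood differed too. Heart muscle markers summed to 1124 FPKM in the IL-22 library and 768 FPKM with PBS, 1 of 10 called higher, and to 150.2 FPKM in knockout lung and 393 in wild-type lung after HDM, where all 8 measured were called lower. Fat cell markers summed to 312 FPKM in the IL-22 library and 151 FPKM with PBS, 5 of 6 called higher, and to 35.7 FPKM in knockout lung and 74.6 in wild-type lung after HDM, 3 of 5 called lower; Lep, the gene of leptin, was at 0 in both HDM libraries. Alveolar macrophage markers summed to 719 FPKM in knockout lung and 2956 in wild-type lung after HDM, 4 of 10 called lower; Chi3l3 carried most of that gap, and without it the sums were 352 FPKM in knockout lung and 518 in wild-type lung. With IL-22 9 of the 10 lay below 0 (median -0.16), and the other, Fabp4, which fat cells also express, was called higher. Erythroid markers summed to 20398 FPKM in knockout lung and 9372 in wild-type lung after HDM, 5 of 8 called higher, and none of 9 was called with IL-22. Of the other marker lists those of fibroblasts (2 higher of 10), neutrophils (2 higher and 1 lower of 6) and eosinophils (1 lower of 2) had called genes after HDM, and that of skeletal muscle (1 higher of 5) had 1 with IL-22. The alveolar type I and type II, club, ciliated, mesothelial, mast, T, B, NK and platelet lists had none in either pair. Some lists without a call with IL-22 lay mostly on the members' side of 0 in that pair. Of alveolar type I markers 7 of 8 lay below 0 (median -0.15), with sums of 3632 FPKM in the IL-22 library and 4871 FPKM with PBS. Of neutrophil markers 7 of 8 did (median -0.12), with sums of 317 FPKM in the IL-22 library and 348 FPKM with PBS. So did 7 of 9 erythroid markers (median -0.11), 4 of 7 club cell markers (median -0.14) and 7 of 10 alveolar type II markers (median -0.10, turned to 0.0033 by scaling to a common total). Other lists without a call lay mostly above 0. These were 7 of 8 ciliated (median 0.25), 4 of 6 NK (0.16), 5 of 6 B (0.10), 4 of 6 T (0.10) and 4 of 7 platelet markers (0.049). The part of these cells and tissues in the members' differences was not tested.

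The HDM libraries stand in another table than the IL-22 and PBS libraries, which may have been normalized separately, and they differ from them in treatment and time, so their levels are only set side by side. All 10 genes were lower in both HDM libraries than in the PBS library, where 41.5% of 13317 genes were, and 9 of 10, all but Fos, were lower in both HDM libraries than in the IL-22 and PBS libraries, where 36% of genes were. The summed level of the 10 was 310 FPKM in the knockout HDM library, 308 in wild-type HDM, 466 with IL-22 and 639 with PBS. The level with PBS was between 1.25 times (Junb) and 7.78 times (Fosb) that in wild-type HDM. Of the 36 other immediate early genes 19 were lower in both HDM libraries than with PBS, and of 11 endothelial markers 10 were. The same held for 7 of 7 club cell, 8 of 9 heart muscle, 5 of 6 fat cell and 5 of 6 mesothelial markers. It held for only 3 of 10 smooth muscle, 1 of 8 erythroid and 1 of 7 NK cell markers. For Nr4a1 the level was 7.38 FPKM in the knockout HDM library, 7.43 in wild-type HDM, 54.1 with IL-22 and 85.7 with PBS. Ranks within a library do not depend on its scaling. Egr1 lay above 59.8% of all genes in the knockout HDM library, 61.9% in wild-type HDM, 73.3% with IL-22 and 87.2% with PBS. Fosb lay above 47.7% in the knockout HDM library, 40.8% in wild-type HDM, 55.2% with IL-22 and 63.5% with PBS. Jun lay above 95.6% in the knockout HDM library, 94.99% in wild-type HDM, 96.7% with IL-22 and 97.03% with PBS.

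**Figure D4:**
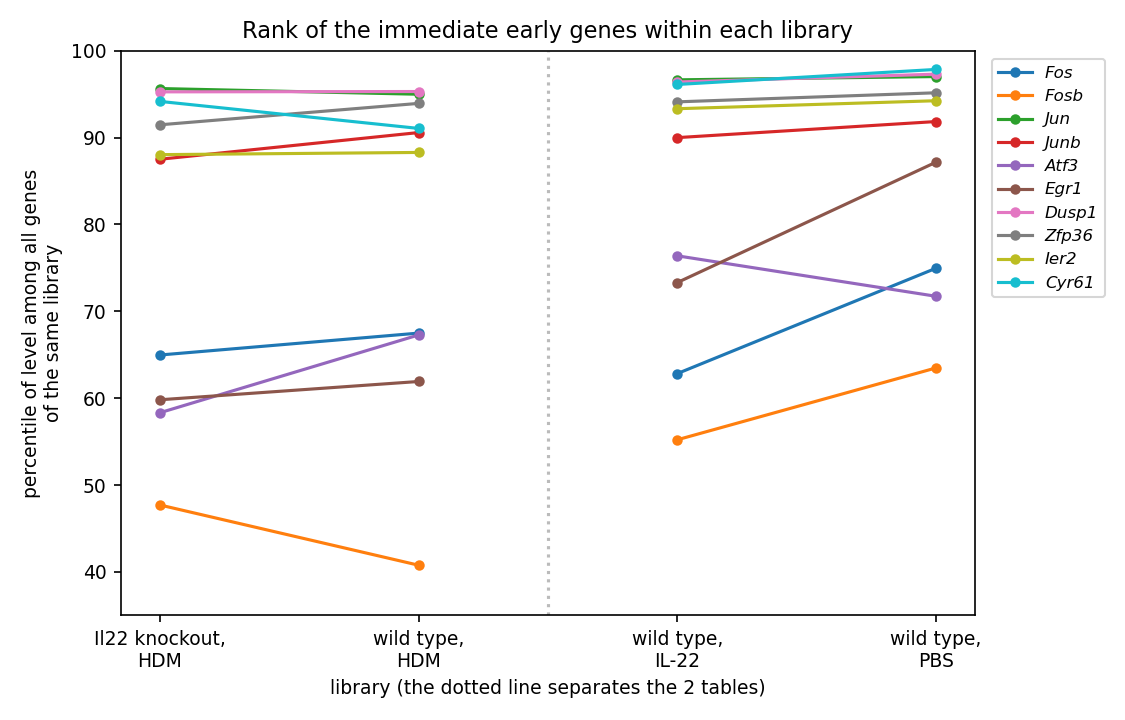
Percentile of each gene's FPKM among all 23284 genes of the same library, with a line joining the libraries of 1 table. Of the 10, Egr1 differs most between the IL-22 library, at 73.3, and the PBS library, at 87.2; those of Jun and Dusp1 stay above 94.

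The members were not uniform in their profile over the 4 libraries. This profile spans both tables, so any gap between them in normalization, treatment or time enters the distances below. The members' mean centred level was -0.45 in knockout HDM, -0.40 in wild-type HDM, 0.20 with IL-22 and 0.66 with PBS. By Euclidean distance of the centred log2(FPKM + 1) profile to the members' mean, Dusp1 (0.164) and Ier2 (0.210) lay nearest and Egr1 (0.917) farthest. Of 9125 other genes with a mean of at least 5 FPKM, the 5 nearest over the 4 libraries were Haghl (0.0485), Zfp703 (0.0890), Jund (0.0944), Glrx5 (0.123) and Ltc4s (0.130). Jund was the only AP-1 gene among these 5. Haghl was at 5.97 FPKM in the knockout HDM library, 5.96 in wild-type HDM, 10.02 with IL-22 and 13.6 with PBS.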

How the data were processed

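The authors deposited FPKM values per gene in 2 tables, 1 for the HDM pair and 1 for the IL-22 and PBS pair; mm10, TopHat2, Cufflinks 2.2.1 and CASAVA 1.8.2 are listed in the submitters' processing notes, without settings, strand or scaling between libraries. The 23746 rows of each table were joined on symbol and accession, 25 symbols turned into dates were restored from the accession, and rows of 1 symbol were added. Groups came from the sample titles. Differences were taken within a table, with a pseudocount of 1. Reads were estimated from FPKM, depth and GENCODE M21 transcript length less 200 bases; depth is the most frequent value of 1 read, and 61.9 to 63.1% of low values came out within 0.1 of a whole read. The authors' transcript lengths may differ, which would move reads and interval widths but not ratios. With 1 library per group no test was run. Steps were tested on simulated data. The members and the 39 lists were chosen with earlier results of these data known. Named besides the members were up to 3 called genes of each family, pathway and tissue-state list with the largest differences, 7 fixed relatives and regulators, and the 5 nearest profiles. Relatives past 1.5-fold with IL-22 were named as well. Alternatives were a pseudocount of 0.1, 3 scalings, no filter or a mean of at least 5 FPKM, a 1.5-fold size, and the highest row per symbol. The tools were Python 3.11.15, pandas 2.3.3, numpy 2.4.6, matplotlib 3.10.9 and scipy 1.17.1.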

Additional observations from a re-analysis of the deposited data

How the results depend on the processing

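With IL-22, Egr1 was called lower under every alternative run and the median of the 10 genes stayed below 0. Scaling to a common total, which shifts all genes of that pair by 0.10, brought this median to -0.26. Scaling by reference genes, which shifts the HDM pair by 0.18 and whose list includes the called-lower B2m, brought the HDM median to 0.068, a change of sign, and both of these scalings turned Dusp1 above 0 after HDM. The sign of Ier2 after HDM also depended on the scaling (-0.027 to 0.17). A pseudocount of 0.1 called 1 member, Fosb, higher after HDM, at 1.08. At a size of 1.5-fold 2 members, Fosb and Cyr61, were higher and 1, Atf3, lower after HDM, and 3 were lower with IL-22. With a mean of at least 5 FPKM Fosb was not measured in either pair, nor Egr1 after HDM. Of the remaining values, differences of single genes and counts and medians of lists, 1773 stayed within 1.5 times the count or within the half-width of the counting interval, and 173 moved by more. No paired analysis was possible because each group has 1 library, and for the same reason no library could be left out. The fewest estimated reads were 65, for Fosb in wild-type HDM, whose ratio has an interval of 1.69 to 3.07, and after HDM the intervals of Egr1 and Fos reached just past 1, so depth limits what these ratios show; spread between animals was not measured.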

Other observations

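Among the 36 other measured immediate early genes, 4 are named here that were picked after their values were seen. Ier3 and Id3 had opposite signs in the 2 pairs, in the same way as Fosb, Jun and Cyr61, while Atf3 had them the other way round. Ier3, a regulator of cell survival, was at 85.6 FPKM in the IL-22 library and 131 FPKM with PBS, and at 69.6 in knockout lung and 45.1 in wild-type lung after HDM. Id3, an inhibitor of helix-loop-helix factors, was at 81.1 FPKM in the IL-22 library and 100.4 FPKM with PBS, and at 88.8 in knockout lung and 57.4 in wild-type lung after HDM. Neither was called in either pair. Klf2, a factor induced by flow in endothelium, lay below 0 in both pairs, at 187 FPKM in the IL-22 library and 227 FPKM with PBS and at 87.1 in knockout lung and 91.3 in wild-type lung after HDM. Nfkbiz, a nuclear regulator of NF-κB targets, lay on the side of Atf3 in both pairs, at 6.84 FPKM in the IL-22 library and 3.82 FPKM with PBS and at 3.95 in knockout lung and 6.48 in wild-type lung after HDM.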
